A study of Mus musculus with 12 samples.

Results

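Granzymes and perforin are the proteins with which killer lymphocytes destroy other cells. 10 genes were examined in MC38 tumors, chosen by symbol out of the 18211 genes measured. They were the 8 granzyme genes Gzma, Gzmb, Gzmc, Gzmd, Gzme, Gzmf, Gzmg and Gzmk, the perforin gene Prf1, and Nkg7, which encodes a granule membrane protein of the same cells. All 10 passed the filter on low counts that left 13563 genes for testing, Gzmk only through the few tumors where it was high.

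MC38 is a mouse colorectal adenocarcinoma cell line. The cells were grown under the skin of female C57BL/6 mice, bought at 5 weeks of age, and the mice were grouped on day 7. CK mice received the vehicle. PB-020, an IGF-1R inhibitor, was gavaged daily (50 mg/kg). The anti-PD-1 antibody, which blocks an inhibitory receptor of T cells, was injected 4 times (days 9, 12, 15 and 18) with 200 μg per mouse. The combination group received PB-020 and anti-PD-1 together. Each of the 4 groups had 3 tumors with 1 RNA library each, and every group carried the same single cell line. The libraries held 16545394 to 17217035 expected counts, so depth differed little between the groups. Whole tumors were ground, so tumor cells and host cells were measured together, and a change in the number of killer cells cannot be told apart from a change in RNA per cell. Of the genes that define epithelial cells, Krt8, Krt18 and Epcam were at or near 0 in all 12 tumors, the highest value being 0.54 FPKM for Epcam, while Cdh1 ranged from 1.59 to 3.96 FPKM.

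Cytotoxic T cells and natural killer (NK) cells store granzymes and perforin in secretory granules. When the granules are released onto a target cell, perforin opens its membrane and the granzymes, which are serine proteases, cut proteins inside it. Granzyme B cuts after aspartate and starts apoptosis, granzyme A is a tryptase, and granzyme K is a tryptase found mainly in less differentiated T cells. Granzymes C to G are found in rodents and are induced in strongly stimulated lymphocytes. Nkg7 is needed for efficient release of the granules.

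On assembly GRCm38.p6, 6 of the granzyme genes lie in 1 cluster on the minus strand of chromosome 14. They run from Gzme (56117619 to 56120625) through Gzmd (56129556 to 56132603), Gzmg (56156581 to 56159579), Gzmf (56205263 to 56211407) and Gzmc (56231397 to 56241647) to Gzmb (56258836 to 56262334). Gzma (113093824 to 113100981) and Gzmk (113171630 to 113180965) lie near each other on chromosome 13. Prf1 lies on chromosome 10 (61297751 to 61304684) and Nkg7 on chromosome 7 (43437138 to 43438246).

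The sequences before the start sites of the chromosome 14 genes are shown because Gzmc to Gzmg moved together from tumor to tumor and Gzmb less so, and that of Gzma is shown as a gene that rose. Each is the stretch from 200 to 11 bases before the RefSeq start, 190 bases written 5′ to 3′ on the minus strand. Capitals mark letters that match 1 of 5 short motifs on either strand. These are CRE (TGACGTCA), AP-1 (TGANTCA), Runx (TGTGGT), T-box (AGGTGT) and NFAT (GGAAA), where N is any base. For Gzmd and Gzmc the start in the promoter table lies inside the gene span given above. The stretch of Gzmd therefore begins just outside that span and holds 5 bases of an exon that GENCODE vM21 extends further, and the stretch of Gzmc lies wholly within the span of its gene.
Gzme (chr14:56120636-56120825): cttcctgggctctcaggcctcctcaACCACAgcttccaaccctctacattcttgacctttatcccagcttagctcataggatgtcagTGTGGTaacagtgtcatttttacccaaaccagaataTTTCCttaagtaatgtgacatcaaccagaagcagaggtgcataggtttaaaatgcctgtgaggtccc
Gzmd (chr14:56132604-56132793): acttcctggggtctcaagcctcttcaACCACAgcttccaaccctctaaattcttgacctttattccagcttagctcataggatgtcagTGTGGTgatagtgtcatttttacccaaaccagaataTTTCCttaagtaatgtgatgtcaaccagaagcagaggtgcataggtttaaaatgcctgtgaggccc
Gzmg (chr14:56159590-56159779): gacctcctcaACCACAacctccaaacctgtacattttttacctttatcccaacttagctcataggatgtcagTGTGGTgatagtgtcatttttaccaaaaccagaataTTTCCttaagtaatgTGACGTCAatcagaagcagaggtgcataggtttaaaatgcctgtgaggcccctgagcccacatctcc
Gzmf (chr14:56211418-56211607): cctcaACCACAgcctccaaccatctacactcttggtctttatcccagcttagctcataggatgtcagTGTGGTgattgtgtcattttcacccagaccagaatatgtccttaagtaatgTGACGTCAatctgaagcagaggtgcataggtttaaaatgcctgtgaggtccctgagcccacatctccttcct
Gzmc (chr14:56234668-56234857): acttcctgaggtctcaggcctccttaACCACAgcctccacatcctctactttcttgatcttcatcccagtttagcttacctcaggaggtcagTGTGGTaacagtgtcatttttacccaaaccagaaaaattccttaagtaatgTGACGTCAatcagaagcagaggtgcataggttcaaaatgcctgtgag
Gzmb (chr14:56262345-56262534): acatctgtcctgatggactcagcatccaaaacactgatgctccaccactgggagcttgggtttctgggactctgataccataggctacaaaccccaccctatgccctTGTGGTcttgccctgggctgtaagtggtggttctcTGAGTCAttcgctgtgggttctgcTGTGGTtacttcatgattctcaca
Gzma (chr13:113100992-113101181): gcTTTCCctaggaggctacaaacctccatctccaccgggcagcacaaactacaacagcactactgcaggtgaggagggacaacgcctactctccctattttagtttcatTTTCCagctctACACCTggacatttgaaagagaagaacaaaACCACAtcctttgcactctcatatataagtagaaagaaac

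In the 250 bases before the start, the Runx letters occurred 2 times in each of Gzmb, Gzmc, Gzmd, Gzme, Gzmf and Gzmg and 1 time in Gzma, against 14% of 32851 RefSeq promoters with at least 1 match. The full CRE was present in Gzmc, Gzmf and Gzmg, and 1.55% of promoters held it. Gzmb had no CRE and 1 AP-1 match, a motif that 6.75% of promoters held. T-box letters were found in Gzma and not in the chromosome 14 genes, with 11.8% of promoters holding them, and NFAT letters were common at 55.6%. Gzmc, Gzmd, Gzme, Gzmf and Gzmg shared a run of 20 bases, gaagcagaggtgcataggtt, which began 45 to 70 bases before their starts and was absent from the Gzmb stretch. Only these 5 of the 32851 promoters held the run. Pairwise identity of the 250 bases was 84.4% (Gzmc and Gzmd) to 95.6% (Gzmd and Gzme). These matches describe letters and were not tested as binding sites.

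The transcripts of Gzmd, Gzme, Gzmf and Gzmg were 87.6% to 94.8% identical in the GENCODE vM21 sequences, and Gzmc was 76.1% to 77.1% identical to them. No window of 150 bases, the length of 1 read, was shared between any member and another gene. At 50 bases, 21.9% of Gzmd windows and 20.6% of Gzme windows also occurred in another gene. Non-whole expected counts, which show that reads were divided between genes, occurred in 4 libraries for Gzme and 4 for Gzmf. The split among Gzmd, Gzme, Gzmf and Gzmg is therefore less certain than their sum.

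On the FPKM scale, which corrects for transcript length, the 6 chromosome 14 genes had the highest medians. Gzmf had the highest median over the 12 tumors, 89.5 FPKM, and exceeded Gzmg (53.5) in 12 of 12 tumors. Gzmg and Gzmd (52.7) were close, with Gzmg higher in 9 tumors. They were followed by Gzmc at 31.9, Gzmb at 22.4, Gzme at 17.7, Nkg7 at 11.1, Prf1 at 8.31 and Gzma at 4.88 FPKM. Gzme and Nkg7 could not be ordered, since each was higher in 6 tumors. Gzmk was the lowest, with a median of 0.5 FPKM.

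**Figure D1:**
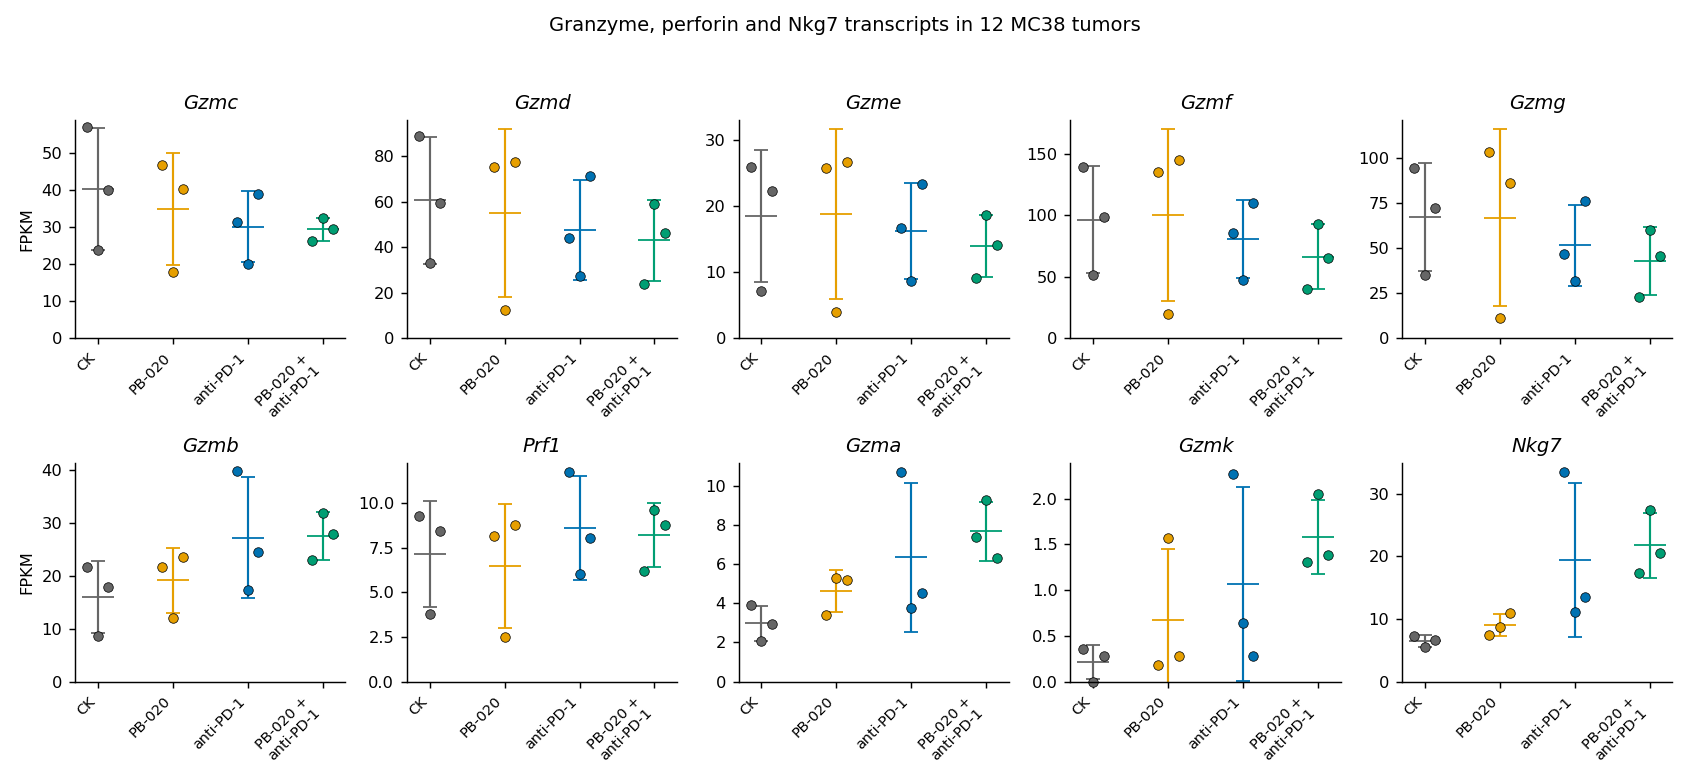
Level of each gene (FPKM, linear axis from 0) in the 12 tumors by group. Points are tumors, and the bars show the mean and SD of 3 tumors. Nkg7 was above every CK tumor in all 6 tumors given anti-PD-1, while Gzmc to Gzmg overlapped between all groups.

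Gzmf, the most abundant granzyme, measured 139, 51.7 and 98.7 FPKM in CK tumors 1 to 3, and 135, 19.6 and 145 FPKM in PB-020 tumors 1 to 3. The anti-PD-1 tumors had 86.0, 47.1 and 110 FPKM, and the combination tumors 40.4, 93.0 and 65.8 FPKM. The groups overlapped throughout, and the spread within PB-020 was wider than any distance between group means.

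Gzmd had 88.9, 33.3 and 59.5 FPKM in CK, 75.1, 12.3 and 77.3 in PB-020, 44.1, 27.6 and 71.1 in anti-PD-1, and 24.0, 59.2 and 46.2 in the combination group. Gzmg had 94.5, 35.3 and 72.7 FPKM in CK, 104, 11.4 and 86.1 in PB-020, 46.8, 31.9 and 76.3 in anti-PD-1, and 22.7, 60.3 and 45.8 in the combination group. Gzmc had 57.1, 24.0 and 40.2 FPKM in CK, 46.8, 18 and 40.4 in PB-020, 31.5, 20.1 and 39.0 in anti-PD-1, and 26.3, 32.4 and 29.6 in the combination group. PB-020 tumor 2 was the lowest of the 12 tumors for all 3 genes. Gzme, the least abundant of the cluster, ranged from 4.06 FPKM in that tumor to 26.8 FPKM in PB-020 tumor 3. For Gzmd, Gzme, Gzmf and Gzmg, the highest and lowest tumor within each group lay further apart than any group means. The Gzmc values of the combination group were closer together, inside the range of the CK tumors.

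Gzmb, the best known of the apoptosis-inducing granzymes, had 21.8, 8.54 and 17.9 FPKM in CK and 21.7, 12.1 and 23.7 in PB-020. It had 39.7, 17.3 and 24.5 FPKM in anti-PD-1 and 22.9, 31.8 and 27.8 in the combination group. All 3 combination tumors lay above all 3 CK tumors, but anti-PD-1 tumor 2 lay inside the CK range. Prf1, which encodes the pore-forming protein, had 9.27, 3.77 and 8.46 FPKM in CK, 8.15, 2.48 and 8.79 in PB-020, 11.8, 6.03 and 8.04 in anti-PD-1, and 6.19, 9.62 and 8.81 in the combination group. Its groups overlapped.

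Nkg7 had 7.33, 5.50 and 6.57 FPKM in CK, and 7.42, 8.75 and 10.98 in PB-020. It had 33.5, 11.2 and 13.6 FPKM in anti-PD-1, and 17.3, 27.4 and 20.5 in the combination group. It was the sole member for which all 6 tumors with anti-PD-1 lay above all 6 without it, a separation in this direction that 4.1% of the genes tested showed. No member had all 6 below, as 4.5% of the genes tested did.

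Gzma had 3.90, 2.10 and 2.95 FPKM in CK, 3.42, 5.29 and 5.20 in PB-020, 10.7, 3.79 and 4.55 in anti-PD-1, and 7.42, 9.31 and 6.31 in the combination group. The 3 combination tumors were above every CK and every PB-020 tumor. Gzmk had 0.36, 0 and 0.28 FPKM in CK, 0.18, 1.57 and 0.28 in PB-020, 2.27, 0.64 and 0.28 in anti-PD-1, and 1.31, 2.05 and 1.38 in the combination group. These values rest on 0 to 4 expected counts per CK tumor and 14 to 22 per combination tumor, so its fold changes are imprecise. Gzmk passed the filter, with a minimum count of 10, only through the 3 combination tumors, PB-020 tumor 2 and anti-PD-1 tumor 1. Its changes, passes and separation from CK therefore only describe these tumors and count as no support for an effect. The combination tumors lay above the CK tumors without overlap for Gzma, Gzmb, Gzmk and Nkg7, 4 of the 10 members, as did 19.6% of the genes tested.

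Each treated group was compared with the same 3 CK tumors to ask which granule genes each treatment changed. In the combination group, 2 of 10 members rose and 0 fell at an adjusted p under 0.05 (edgeR's quasi-likelihood test). Of all genes tested 17.9% passed, with 8.35% higher and 9.6% lower. At an unadjusted p under 0.05, 3 members and 33.9% of all genes passed. Nkg7 rose by 1.76 on the log2 scale (SE 0.39, adjusted p = 0.0142), from 6.47 ± 0.92 FPKM in CK to 21.7 ± 5.15 (SD, n = 3 tumors each). Gzma rose by 1.38 (SE 0.37, adjusted p = 0.0255), from 2.98 ± 0.90 to 7.68 ± 1.52 FPKM. Gzmk had a log2 change of 2.84 with an SE of 0.97 and did not pass (adjusted p = 0.0612). Gzmb had a change of 0.79 with an SE of 0.41 and did not pass either (adjusted p = 0.212). Without CK tumor 2 neither call held (adjusted p = 0.0659 for Nkg7 and 0.106 for Gzma), and that of Gzma was also lost without CK tumor 3, combination tumor 1 or combination tumor 2 (adjusted p = 0.0704, 0.0665 and 0.0831).

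Prf1 had a log2 change of 0.21 (SE 0.49) in the combination group. The 5 genes Gzmc to Gzmg had changes of -0.39 to -0.63 with SEs of 0.42 to 0.75, none of which passed. With Gzmd to Gzmg summed into 1 row, because of their similar sequences, the change was -0.53 (SE 0.72, adjusted p = 0.645).

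In anti-PD-1 against CK, 1 of 10 members rose and 0 fell, where 8.26% of all genes tested passed, 4.18% higher and 4.08% lower. At an unadjusted p under 0.05, 3 members and 26.6% of all genes passed. The member that rose was Nkg7, with a log2 change of 1.61 (SE 0.39, adjusted p = 0.0343). Gzma had a change of 1.11 (SE 0.38, adjusted p = 0.0833) and Gzmk of 2.28 (SE 1.01, adjusted p = 0.17). The Nkg7 call was lost without any 1 of the 3 CK tumors or anti-PD-1 tumor 3 (adjusted p = 0.0602 to 0.134). It was also lost with limma on either FPKM scale (adjusted p = 0.0558 and 0.0529), with only the groups compared (adjusted p = 0.119) and with the replicate block (adjusted p = 0.0669), while DESeq2 called Gzma as well (adjusted p = 0.0407). Without anti-PD-1 tumor 1, the Nkg7 change was 0.96 (adjusted p = 0.027) and that of Gzma 0.51 (adjusted p = 0.312). That tumor stood apart, with 602.7 FPKM summed over 8 skeletal muscle genes against 12.6 to 72.5 in the other 11 tumors, and it also had the highest sum of the T cell markers. In PB-020 against CK, 0 of 10 members passed, as did 0% of all genes by edgeR. At an unadjusted p under 0.05, 0 members and 5.46% of all genes passed, and DESeq2 called 0 members.

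**Figure D2:**
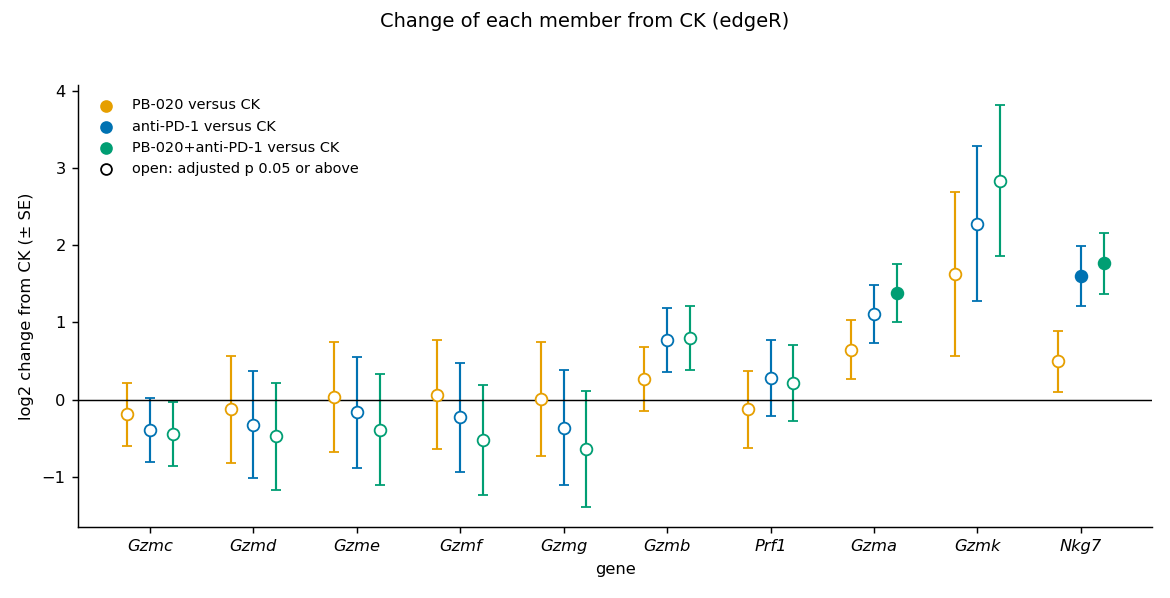
Log2 change from CK for each gene, with bars of 1 SE (edgeR, 3 tumors a group). Filled points passed an adjusted p of 0.05. Nkg7 (anti-PD-1 and combination) and Gzma (combination) were filled, and the 5 genes Gzmc to Gzmg lay near or below 0 in all 3 comparisons.

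The combination group was also compared with each single treatment to ask what the second agent added. Against anti-PD-1, 0 of 10 members passed, and 0% of all genes passed by edgeR. At an unadjusted p under 0.05, 0 members and 7.26% of all genes passed, and DESeq2 called 0 members. Nkg7 had a log2 difference of 0.16 (SE 0.36) and Gzma of 0.27 (SE 0.36), both smaller than their errors. Without anti-PD-1 tumor 1 these differences were 0.80 (adjusted p = 0.471) and 0.87 (adjusted p = 0.526). Against PB-020, 0 of 10 members passed by edgeR, where 3.35% of all genes passed, 1.25% higher and 2.11% lower. At an unadjusted p under 0.05, 22.4% of all genes and 1 member passed, which was Nkg7 with a log2 difference of 1.27 (SE 0.38, adjusted p = 0.0892). DESeq2 called 1 member, also Nkg7 (adjusted p = 0.00716), and gave 1 member no adjusted p. The share of all genes that DESeq2 called was not counted.

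With anti-PD-1 against CK and combination against PB-020 averaged, the 6 tumors with anti-PD-1 were set against the 6 without. Of the 10 members, 2 rose and 0 fell, where 24.2% of all genes passed, 11.8% higher and 12.3% lower. At an unadjusted p under 0.05, 3 members and 37.9% of all genes passed. Nkg7 had a log2 difference of 1.44 (SE 0.27, adjusted p = 0.00544) and Gzma of 0.92 (SE 0.26, adjusted p = 0.0241). Gzmk had 1.75 (SE 0.65, adjusted p = 0.0692), Gzmb 0.65 (SE 0.29, adjusted p = 0.138) and Prf1 0.31 (SE 0.35, adjusted p = 0.553). Gzmc to Gzmg had differences of -0.30 to -0.50. Gzma did not pass without CK tumor 2, PB-020 tumor 1 or combination tumor 2 (adjusted p = 0.0532 to 0.0631). Gzmk did pass without PB-020 tumor 2 (2.50, adjusted p = 0.0153) or anti-PD-1 tumor 3 (1.97, adjusted p = 0.0451), with DESeq2 (1.79, adjusted p = 0.0444) and without both anti-PD-1 tumor 1 and PB-020 tumor 2 (1.91, adjusted p = 0.02). The interaction, which asks whether anti-PD-1 had another effect in the presence of PB-020, passed for 0 of 10 members by edgeR and by DESeq2, and 0 members and 2.29% of all genes had an unadjusted p under 0.05. It passed for 0% of all genes, and its SEs for the members were 0.52 to 1.31 on the log2 scale.

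Across the 12 tumors the members fell into sets that varied together. Pearson's r of log2 CPM was 0.92 to 0.99 among Gzmc, Gzmd, Gzme, Gzmf and Gzmg. Gzma, Gzmk and Nkg7 correlated with each other at 0.82 to 0.94. Gzmk passed the count filter only through the tumors where it was high, so its place in this set counts as no support. With each group's mean subtracted, r was 0.92 for Gzma and Nkg7, 0.78 for Gzma and Gzmk and 0.63 for Gzmk and Nkg7. Between the sets r was low, from -0.435 (Gzmg and Gzmk) to 0.091 (Gzme and Nkg7). Prf1 correlated with Gzmc to Gzmg at 0.72 to 0.87 and with Gzmb at 0.86, and Gzmb correlated with Nkg7 at 0.81. Gzmb correlated with Gzmc to Gzmg at 0.43 to 0.609. With each group's mean subtracted this was 0.745 to 0.852, against 0.924 to 0.993 among Gzmc to Gzmg. These coefficients describe 12 libraries that share the tumors and the group structure, and no p is given.

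**Figure D3:**
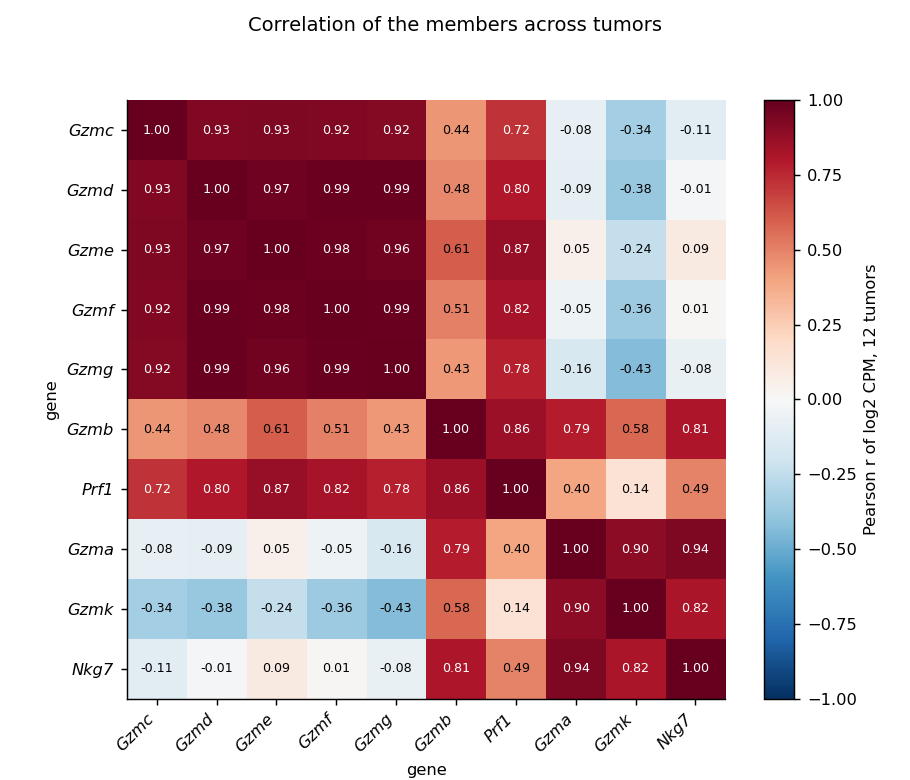
Pearson's r of log2 CPM for each pair of genes over the 12 tumors (color scale from -1 to 1). Gzmc to Gzmg form a block of 0.92 to 0.99, and Gzma, Gzmk and Nkg7 a second block of 0.82 to 0.94. Gzmk passed the count filter only through the tumors where it was high.

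Nkg7 followed the T cell genes, with r = 0.97 to Cd8a and 0.96 to Cd3e, whereas the coefficients of Gzmc to Gzmg with Cd8a were -0.10 to 0.14. Gzmd, Gzmf and Gzmg had r = 0.80 to 0.82 with Cpa3, a mast cell protease, and PB-020 tumor 2 was the lowest for all 4 genes. With the mast cell genes Mcpt4, Tpsb2 and Cma1, the r of Gzmc to Gzmg was 0.664 to 0.733, 0.62 to 0.744 and 0.495 to 0.573. With the NK cell genes Klrb1c and Ncr1 it was 0.483 to 0.6 and 0.225 to 0.35, and PB-020 tumor 2 was also the lowest for both. With each group's mean subtracted, the r of Gzmc to Gzmg was 0.285 to 0.367 with Cd8a. It was then 0.728 to 0.816 with Klrb1c, 0.522 to 0.674 with Ncr1 and 0.738 to 0.904 with Cpa3. Of the genes that passed the filter, Gzmd to Gzmg themselves left out, Ctsg (0.96), Fcrl6 (0.95), Gzmc (0.93), Adprhl2 (0.88) and Crtc2 (0.85) were most like the sum of Gzmd to Gzmg. Ctsg encodes cathepsin G. The genes most like Gzmb were Tnfsf9, Sytl3, Slain1, Gbp8 and Klrb1b, at 0.93 to 0.95. Those most like Prf1 were Asb13, Sectm1a, Noc4l, Klra3 and Xdh, at 0.87 to 0.90. Those most like Gzmk were Grap2, Pycard, Ltb4r1, Zfp518a and Cntfr, at 0.90 to 0.92.

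The make-up of the granzyme pool differed from tumor to tumor. Gzmc to Gzmg together gave 94.0%, 93.4% and 93.3% of the summed FPKM of the 8 granzymes in CK, and 93.9%, 77.5% and 92.8% in PB-020. They gave 81.0%, 86.2% and 91.6% in anti-PD-1 and 79.5%, 85.9% and 85.0% in the combination group. All tumors with anti-PD-1 lay below all CK tumors, but PB-020 tumor 2 lay below every one of them. The share of Gzmb was 5.04% to 5.69% in CK, 5.25%, 14.4% and 5.84% in PB-020, 14.3%, 10.99% and 7.02% in anti-PD-1, and 10.4% to 14.9% in the combination group. PB-020 tumor 2 thus lay inside the combination range.

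To set each gene against CD8 T cells of the same tumor, its CPM was divided by that of Cd8a, which encodes a chain of the CD8 co-receptor. Cd8a had 2.33, 1.86 and 2.88 FPKM in CK, 2.73, 2.43 and 3.08 in PB-020, 10.3, 4.45 and 3.84 in anti-PD-1, and 4.73, 7.39 and 6.25 in the combination group. It rose with anti-PD-1 in the average over both backgrounds by 1.28 on the log2 scale (SE 0.25, adjusted p = 0.00634), so a gene that stayed level falls in this ratio. Log2(Gzmc/Cd8a) was 2.69, 1.76 and 1.88 in CK, 2.17, 0.96 and 1.79 in PB-020, -0.28, 0.27 and 1.43 in anti-PD-1, and 0.55, 0.23 and 0.34 in the combination group. It was lower with anti-PD-1 by 1.45 in the mean (exact permutation test over 924 splits, two-sided, p = 0.00433, 0.0433 after adjustment over the 10 ratios), and 5 of the 6 tumors with anti-PD-1 were below all 6 without.

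The other ratios of the cluster, of Prf1 and of Gzmb were also lower with anti-PD-1, by 0.52 (Gzmb) to 1.49 (Gzmg) on the log2 scale. Their exact permutation p-values were 0.0281 to 0.039, and all 6 stood at 0.0557 after adjustment, so they did not pass. The Gzma ratio differed by -0.36 (exact permutation p = 0.0974). The Nkg7 ratio differed by 0.13 (exact permutation p = 0.333) and the Gzmk ratio by 0.21 (exact permutation p = 0.682). The Gzmc call was lost on leaving out any 1 of 10 of the 12 tumors. Without either of the other libraries, PB-020 tumor 2 or anti-PD-1 tumor 3, 7 ratios passed. The exact test has fewer splits with 1 tumor left out, so a lost call cannot show that it depended on that tumor. With Cd3e in place of Cd8a, 7 ratios passed.

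**Figure D4:**
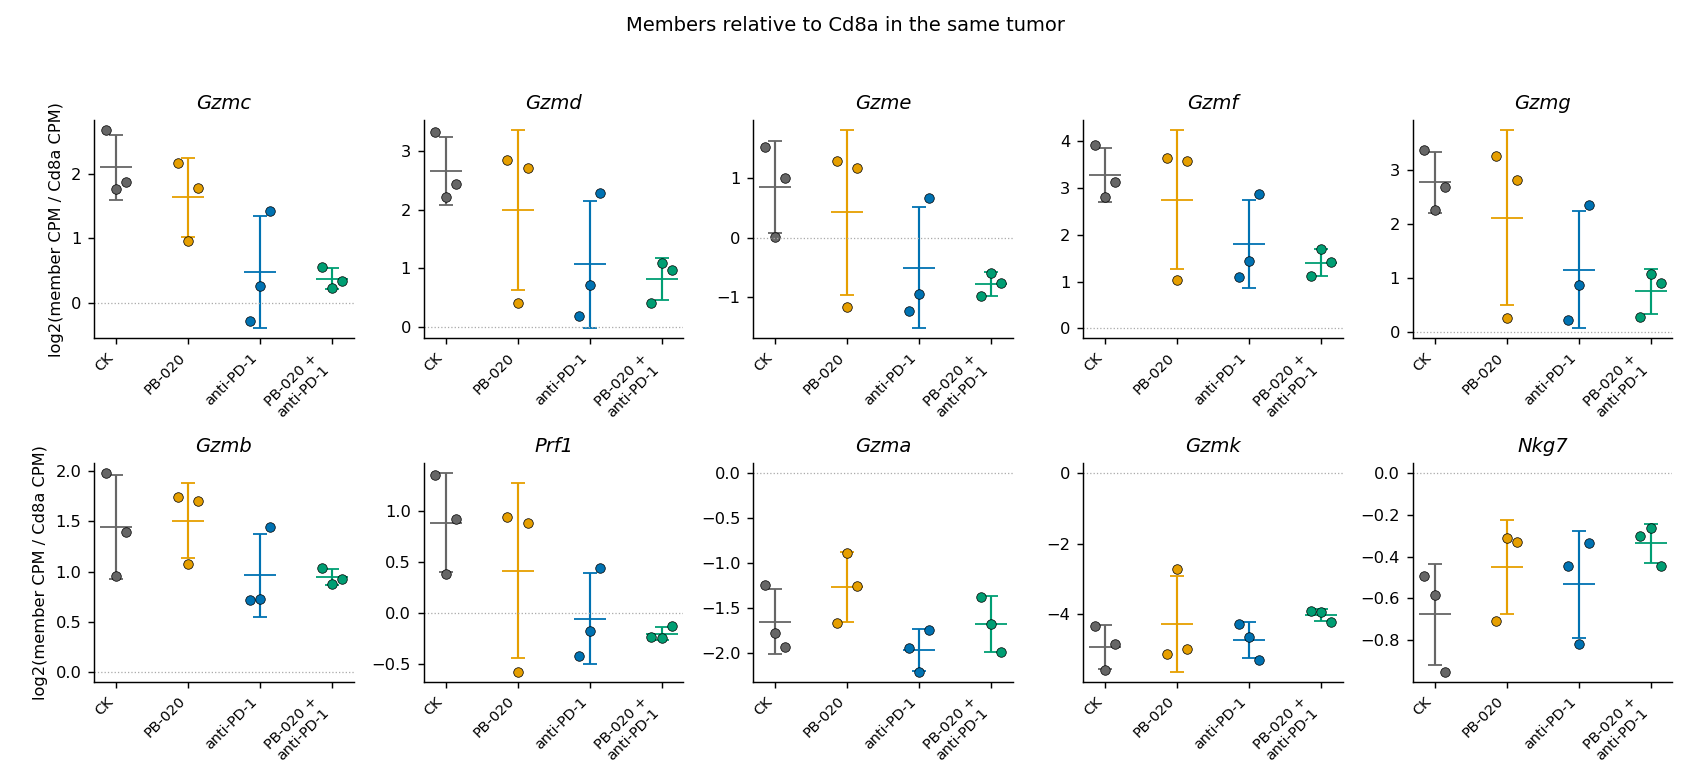
Log2 of each gene's CPM over that of Cd8a in the same tumor, by group. Points are tumors, bars the mean and SD of 3 tumors, and the dotted line marks equal CPM. Gzmc to Gzmg were lower in most anti-PD-1 and combination tumors, and Nkg7 lay between -0.95 and -0.26 in all 12.

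Genes that load and store the granule contents gave 1 of 8 tested members higher in the combination group against CK and 3 of 8 with anti-PD-1 in the average over both backgrounds, where 8.35% and 11.8% of all genes were higher. In the combination group the share lay near that of all genes, and the median log2 change was 0.48 against -0.0026 for all genes. Ctsw, a lymphocyte cathepsin, rose in the combination group by 1.14 (SE 0.35, adjusted p = 0.0424). Ctsc, which removes the propeptide of granzymes, had 0.73 (SE 0.26, adjusted p = 0.083), and Cst7, which inhibits Ctsc, had 1.23 (SE 0.43, adjusted p = 0.0602). Both passed in the average effect of anti-PD-1, at 0.74 and 1.08. Srgn, the proteoglycan that binds granzymes, did not pass (0.61, SE 0.33), nor did the granzyme gene Gzmm (0.36, SE 0.32).

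Genes of granule exocytosis gave 3 of 11 higher in the combination group, against 8.35% of all genes. Unc13d, which primes granules for fusion, rose by 0.98 (SE 0.16, adjusted p = 0.00285). Rab27a, a granule-docking GTPase, rose by 0.65 (SE 0.21, adjusted p = 0.0496), and Coro1a, an actin regulator, by 0.43 (SE 0.13, adjusted p = 0.0378). The median log2 change of the list was 0.12.

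Of 7 serpin genes listed here as granzyme inhibitors, 5 were higher in the combination group, against 8.35% of all genes. Whether each of the 7 inhibits a granzyme was not tested. Serpinb9, the inhibitor of granzyme B, had 14.1, 12.1 and 15.3 FPKM in CK and 23.2, 23.7 and 22.3 in the combination group, and rose by 0.77 (SE 0.13, adjusted p = 0.00336). Serpinb6b rose by 0.86 (SE 0.14, adjusted p = 0.00308), Serpina3g by 1.37 (SE 0.25, adjusted p = 0.00856) and Serpinb6a by 0.41 (SE 0.09, adjusted p = 0.00906). The median log2 change of the list was 0.77. Serpina3n did not pass (-0.82, SE 0.52). In anti-PD-1 against CK, 3 of the 7 were higher, against 4.18% of all genes.

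Other killing routes and effector cytokines gave 4 of 11 higher in the combination group, against 8.35% of all genes, with a median log2 change of 1.24. Ifng, the interferon gamma gene, rose by 2.08 (SE 0.45, adjusted p = 0.00945). Tnfsf10, which encodes the death ligand TRAIL, rose by 1.30 (SE 0.30, adjusted p = 0.0138), and Fasl, the Fas ligand, by 1.45 (SE 0.39, adjusted p = 0.0224). Ltb rose by 1.73 (SE 0.52, adjusted p = 0.0412). Among 14 granzyme substrates and death effectors 3 rose and 1 fell, where 8.35% of all genes rose and 9.6% fell, with a median of 0.19. They were Nme1 (0.38), Set (0.25), Hmgb2 (0.34) and Dffb (-0.45), the last 3 named after their values were seen. Gsdmd (0.29) and Parp1 (0.18) passed in the average effect of anti-PD-1. Gsdme did not pass in the combination group (-0.05, SE 0.22).

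Of 12 transcription factors of killer lymphocytes 5 rose and 1 fell in the combination group, where 8.35% of all genes rose and 9.6% fell, with a median of 0.58. Tbx21, which encodes T-bet, rose by 1.59 (SE 0.42, adjusted p = 0.0203), Runx3 by 0.73 (SE 0.15, adjusted p = 0.00815) and Bhlhe40 by 0.43 (SE 0.11, adjusted p = 0.0182). Zeb2 fell by 0.50 (SE 0.07, adjusted p = 0.0023). Eomes did not pass (-0.10, SE 0.14).

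Markers of the cells that carry granules gave 9 of 10 T cell genes higher in the combination group, against 8.35% of all genes, with a median log2 change of 1.53. Their summed level was 11.5 to 16.2 FPKM in CK, 16.7 to 20.4 in PB-020, 25.8 to 60.9 in anti-PD-1 and 31.5 to 50.2 in the combination group. Cd3d, Cd2 and Cd247 rose by 2.25, 1.75 and 1.52, Cd3e by 1.87 (SE 0.40, adjusted p = 0.00848) and Cd8a by 1.40 (SE 0.35, adjusted p = 0.0252). Of 3 CD8 T cell genes 2 rose, the second being Cd8b1 (1.87, SE 0.41), and Crtam passed in the average effect of anti-PD-1 (1.46). Crtam passed the count filter only through anti-PD-1 tumor 1 and the combination tumors, with 12 to 25 expected counts against 3 to 8 elsewhere. Its pass therefore counts as no support for an effect. Of 5 CD4 and regulatory T cell genes 2 rose, Foxp3 by 1.30 (SE 0.35, adjusted p = 0.0235) and Ctla4 by 1.87 (SE 0.35, adjusted p = 0.00455), while Cd4 did not pass (0.69, SE 0.41) and Il2ra passed in the average effect (0.87). NK cell markers were higher for 5 of 8, against 8.35% of all genes, with a median of 1.55, among them Klrk1 (1.77), Klre1 (2.08), Klrc1 (1.78) and Klrd1 (2.03), but the NK-defining genes Ncr1 (0.81, SE 0.38) and Klrb1c (0.90, SE 0.52) did not pass.

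Mast cell genes were listed because chymases share the chromosome 14 locus. Of 8 tested, 2 rose in the combination group, where 8.35% of all genes rose, the mast cell proteases Mcpt1 (5.27, SE 0.76) and Mcpt2 (2.17, SE 0.42). The Mcpt1 change rests on 0 or 1 expected counts per CK tumor and 25 to 34 per combination tumor. Mcpt1 passed the count filter only through the combination tumors and anti-PD-1 tumors 1 and 3. Its rise therefore only describes these tumors and counts as no support for an effect. Cpa3 (0.29, SE 0.55) and Mcpt4 (0.00, SE 0.78) did not pass. The summed level of the list was 6.5 FPKM in PB-020 tumor 2 and 7.1 to 25.2 in the others. Neutrophil markers summed to 412.4 FPKM in CK tumor 3 and to 33.0 or less elsewhere. All 5 erythroid genes fell in the combination group, where 9.6% of all genes fell. Alas2, Hbb-bs, Hbb-bt and Hba-a1 had log2 changes of -2.86 (Hbb-bs) to -3.36 (Alas2). All 5 also fell in anti-PD-1 against CK, where 4.08% of all genes fell, with a median log2 change of -2.36. Of 4 genes listed for plasmacytoid dendritic cells Ccr9 rose (1.22, SE 0.39) and Tcf4 fell (-0.68, SE 0.09). Siglech (1.33) and Bst2 (0.65) passed in the average effect, as did the plasma cell gene Jchain (3.94, SE 1.03). Tcf4 (14.73 to 27.21 FPKM) and Bst2 (115.3 to 324.5) lay far above Siglech (0.12 to 0.9) and Ccr9 (0.08 to 0.34), so their changes are not read as changes of that cell type. The part of these cells in the results for the granzymes was not tested.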

How the data were processed

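The data are RNA-seq values of 12 MC38 tumors, 3 in each of 4 groups taken from the labels. The authors sequenced pairs of 150 bases, aligned them with Bowtie2 (the submitters' processing notes also name HISAT and the build GRCm38.p6) and quantified genes with RSEM, and versions are not given in the sources used here. The authors deposited expected counts, which are estimated and not normalized (91.2% of values were whole within 1e-09), FPKM values, which are scaled for transcript length and library total, and TPM values, which were not used here. The authors' group averages were not used. Of 18211 genes, 18091 matched RefSeq. Library totals were 16545394 to 17217035 (median 16927043), so counting error is small except for genes with few counts, such as Gzmk. The labels number the tumors of a group without naming mice or batches, so p-values measure the spread between these tumors, which may be technical.

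Expected counts were rounded and filtered with filterByExpr (minimum count 10), which left 13563 genes. edgeR 4.0.16 in R 4.3.3 fitted a quasi-likelihood model with TMM scaling and 4 group means to all 12 libraries, with Benjamini-Hochberg adjustment of p over the genes tested. The comparisons with CK share its 3 tumors. Ratios to Cd8a used log2 CPM (prior count 2) and an exact permutation test, two-sided. With 3 tumors against 3 such a test cannot go below 0.1. The scripts were tested on simulated data. Alternatives were DESeq2 1.42.0, limma 3.58.1 on log2(FPKM + 1) and log2(FPKM + 0.1), no filter, library-size scaling, a replicate block, a fit of only those groups being compared, Gzmd to Gzmg summed and each library left out. Leaving out 2 libraries that stood apart was chosen after seeing the data. DESeq2 gave 1 member no adjusted p in anti-PD-1 against CK, in combination against CK and in combination against PB-020. Its share of all genes called was not counted, so the DESeq2 calls stand without such a share. Promoters are RefSeq sequences of GRCm38.p6 and transcripts are GENCODE vM21.

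The members and gene lists were chosen with earlier results of these data known. All 10 members are described. From each other list, up to 4 called genes were named by smallest p, taken from combination against CK or from the average anti-PD-1 effect, beside a set of fixed genes, and 1 gene that this rule selects is not reported here. For Gzmb, Prf1, Gzmk and the sum of Gzmd to Gzmg, the 5 genes with the highest correlation were named. Krt8, Krt18, Epcam and Cdh1 were added after other values were seen.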

Additional observations from a re-analysis of the deposited data

How the results depend on the processing

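Members called at an adjusted p under 0.05 were recounted under each alternative. In PB-020 against CK, combination against anti-PD-1 and the interaction the count stayed at 0 in every alternative run. In combination against CK the count of 2 became 0 to 2 with 1 library left out. Gzmk passed in addition by edgeR with only the groups compared (2.84, adjusted p = 0.00469). It also passed by edgeR without anti-PD-1 tumor 1 and PB-020 tumor 2 (2.84, adjusted p = 0.00451). Without CK replicate 2 neither Gzma nor Nkg7 passed (adjusted p = 0.106 and 0.0659), and Gzma alone was lost without CK replicate 3, combination replicate 1 or combination replicate 2. In anti-PD-1 against CK the count of 1 became 2 with DESeq2, and 0 with limma on log2(FPKM + 1) or log2(FPKM + 0.1), with only the groups compared and with the replicate block. It was 0 to 2 with 1 library left out, and Nkg7 was lost without any of the CK libraries or anti-PD-1 replicate 3. In combination against PB-020 the count of 0 became 1 with DESeq2, 2 with only the groups compared and 2 without anti-PD-1 tumor 1 and PB-020 tumor 2, and stayed at 0 with 1 library left out. In the average effect of anti-PD-1 it was 1 to 3 with 1 library left out, and 3 (with Gzmk) under DESeq2 and without anti-PD-1 tumor 1 and PB-020 tumor 2. Gzma was lost without CK replicate 2, PB-020 replicate 1 or combination replicate 2, and Nkg7 passed in all 20 alternatives.

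The count of ratios to Cd8a that passed was 1 (Gzmc). It was 7 with Cd3e, 0 with the replicate block, 6 without anti-PD-1 tumor 1 and PB-020 tumor 2, and 0 to 7 with 1 library left out. The 7 came without PB-020 replicate 2 or anti-PD-1 replicate 3. The cause was not tested. The replicate numbers did not pair the tumors, since the correlation of deviations of same-numbered tumors was -0.21 to 0.289, and the block changed no count other than those given. Interaction values, none of which passed, changed sign by more than 1 SE for Gzma (-0.63 to 0.22 with 1 library left out), Gzmk (-1.65 to 0.45) and Nkg7 (-0.60 to 0.30). They did so without anti-PD-1 replicate 1 for Gzma and Nkg7 and without PB-020 replicate 2 for Gzmk, and also reached Gzma at 0.32, Gzmk at 1.63 and Nkg7 at 0.28 without both those libraries. The other 7 members also changed sign under some alternative, by less than 1 SE (-0.85 to 0.43). Low counts limit Gzmk, which the fit of only the groups compared called in the combination group.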
